A study of Homo sapiens with 4 samples.

Results

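The 10 genes described here code for ligands, receptors and SMAD proteins of the TGF-beta pathway. They are TGFB1, TGFB2, TGFB3 and INHBA (ligands), TGFBR1, TGFBR2 and TGFBR3 (receptors), and SMAD2, SMAD3 and SMAD7. They were taken by name as parts of the pathway, with earlier results of these data known, from 19962 coding genes on chromosomes 1 to 22 and X. Every accessible region that overlapped a gene body or the 50 kb on either side of it was counted, which gave 103 regions for the 10 genes, of 99821 regions in the same windows of all coding genes. The assay was ATAC-seq, which marks open chromatin by the places where a transposase can insert sequencing adapters. The cells were MCF10A, a non-transformed human mammary epithelial line, and all of them carried the tet-inducible TAZ-4SA, an active form of the Hippo pathway co-activator TAZ. No Dox cells were compared with cells given 0.05 µg/mL Dox for 72 h, which switches the transgene on, each in 2 biological replicates of 50000 cells. The authors pooled the replicates and deposited 1 peak list per condition. There is therefore no spread between replicates and no test, and every difference below is one between 2 lists. A difference caused by doxycycline itself cannot be told apart from one caused by TAZ-4SA, since both groups carry the transgene and only 1 of them received the drug.

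TGF-beta ligands are secreted in a latent form. Once released, a ligand dimer joins type II receptors to type I receptors, and the type I receptor phosphorylates SMAD2 and SMAD3, which enter the nucleus with SMAD4 and bind DNA beside other factors. SMAD7 is an inhibitory SMAD that is itself a target gene and blocks the receptor. In mammary epithelium the pathway is known both for growth arrest and for epithelial-mesenchymal transition, and TAZ, which binds DNA through TEAD factors, is known to meet SMAD complexes in the nucleus.

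Peaks of the lists that touched or overlapped were merged into union regions, and a region is Dox-only, No-Dox-only or shared according to the lists that called it. Fold enrichment is the peak signal over background at the summit as the peak caller gave it. Folds were not divided between the lists. Their percentile within their own list is given, with peaks of equal fold at their middle rank. The No Dox list is the longer one. The median difference in percentile of shared regions, Dox minus No Dox, over all coding gene windows was −4.56 points with the lists as deposited and −0.0708 with lists of equal length, and rank differences are to be read against these values. A region is called strong where the fold of at least 1 of its peaks reached the median of that peak's list, which was 4.07 in Dox and 3.81 in No Dox. The folds of a list rise in equal steps, of 0.226 for Dox and 0.212 for No Dox, and every fold was a whole number of steps to within 0.01. The weakest peaks of both lists stood at 12 steps and the median peak at 18, so the number of steps shows how far a peak lay above the limit of calling. The Dox list held 84353 peaks and the No Dox list 117740. Read counts are not part of the lists and the depth is not known, and absence from a list says only that no peak passed the threshold.

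As a check of the cell type, 6 of 8 basal mammary epithelial genes, KRT5, KRT17, LAMB3, ITGB4, CDH1 and EGFR, had a promoter peak in both lists. TP63, a master factor of basal epithelium, had one in Dox alone and the basal keratin KRT14 in neither list. Of 10 genes of immune, endothelial, luminal, liver and glial cells, 6 had no promoter peak in either list, ESR1 had one in both, PTPRC and PGR in No Dox alone and GFAP in Dox alone.

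Of the 103 regions of the TGF-beta genes, 54 were shared, 28 were Dox-only and 21 No-Dox-only. Over all coding gene windows 25.2% of regions were Dox-only and 38.2% No-Dox-only. Of the regions called in a single condition, 57.1% were Dox-only for the 10 genes (95% confidence interval 42.2 to 71.2, exact Clopper-Pearson, counting error only), against 39.7% over all coding genes. Regions of one gene share a locus and are not independent, which this interval does not cover. Without TGFB2, which held 41 of the 103 regions, the counts were 17 Dox-only against 6 No-Dox-only, a share of 73.9% (51.6 to 89.8). TGFB2 held 15 of the 21 No-Dox-only regions, so leaving it out raises the share. SMAD7 held 8 of the 28 Dox-only regions, all weak, and 0 No-Dox-only regions. Without those 8, Dox-only regions would not outnumber No-Dox-only regions. With both lists cut to the same number of peaks, the share was 74.4% for the 10 genes and 55.0% over all coding genes. This cut fell among peaks of equal q-value. With all tied peaks kept the shares were 70.7% and 50.2%, and with all of them left out 78.1% and 57.7%. Most of these condition-only peaks were weak. Strong regions numbered 7 in Dox alone and 6 in No Dox alone, where 7.31% and 12.1% of all regions in coding gene windows were strong and condition-only. The Dox-only peaks of the 10 genes stood at 13 to 42 steps with a median of 16, and the No-Dox-only peaks at 13 to 23 steps with a median of 15. Both medians were close to those over all coding genes, 16 in each direction.

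The base composition moved with the classes. Over all coding gene windows 25.1% of the condition-only regions were Dox-only where the sequence within 100 bp of the summit held under 40% GC, and 68.5% where it held 60% or more. In the 10 genes, 6 of 11 condition-only regions under 40% GC were Dox-only, 12 of 22 between 40 and 50%, 6 of 11 between 50 and 60%, and 4 of 5 at 60% or more. The part of GC content in the counts below was not tested.

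**Figure D1:**
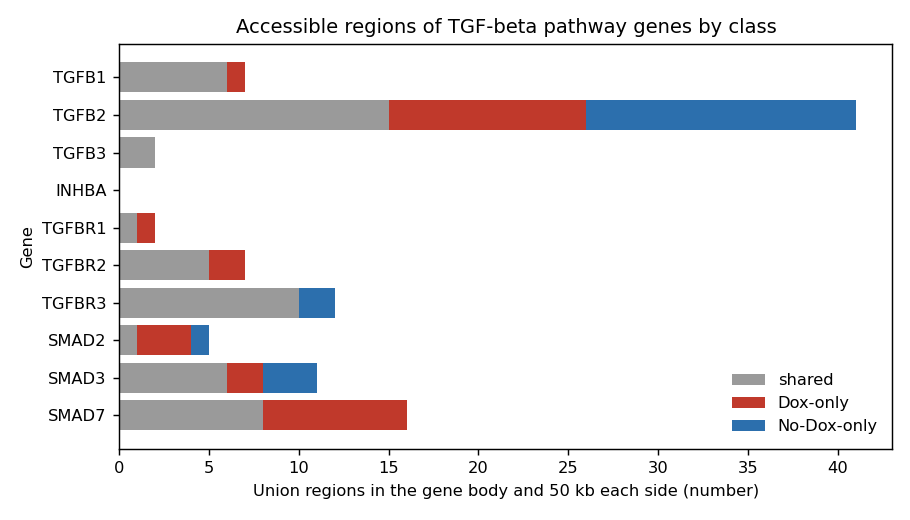
Number of union regions in the gene body and 50 kb on each side (horizontal axis) for each of the 10 genes, split into shared (grey), Dox-only (red) and No-Dox-only (blue). TGFB2 held 41 regions of all 3 classes, SMAD7 held 8 regions with Dox alone and 0 without it, and INHBA held none.

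At the promoters, taken as 1 kb around a GENCODE TSS, 9 of the 10 genes had a peak in both lists and INHBA had one in neither. Over all coding genes 65.3% had a promoter peak in both lists, 5.85% in Dox alone, 3.92% in No Dox alone and 24.9% in neither. No member had its promoter peak in 1 list alone. Counted by single TSSs, 9 genes had peaks at the same number of TSSs in both lists, among them INHBA with 0. SMAD7 had peaks at 6 of its 8 annotated TSSs with Dox and at 3 without. The TSSs with a peak in Dox alone lay within 1 kb of weak peaks, with folds of 3.62 and 3.84 at 16 and 17 steps. How many of all coding genes differ in this way was not counted.

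A few sequences show the regions that the results turn on, each read from hg38 (forward strand, 5′ to 3′, 100 bp on each side of the summit). Capitals mark a match to the TEAD motif, ACATTCC or GCATTCC, or its reverse complement. The first 4 are all the Dox-only regions of the 10 genes that held a TEAD match within 100 bp of the summit, and the last 2 are TGFB2 regions, found in both lists, whose peak stood much higher in the Dox list.
SMAD3, 21.1 kb upstream, chr15:67044356-67044556: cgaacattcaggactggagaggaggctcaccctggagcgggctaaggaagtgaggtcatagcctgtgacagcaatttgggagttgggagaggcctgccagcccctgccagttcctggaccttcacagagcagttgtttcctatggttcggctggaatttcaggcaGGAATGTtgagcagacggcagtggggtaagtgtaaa
SMAD2, 37.6 kb upstream, chr18:47968178-47968378: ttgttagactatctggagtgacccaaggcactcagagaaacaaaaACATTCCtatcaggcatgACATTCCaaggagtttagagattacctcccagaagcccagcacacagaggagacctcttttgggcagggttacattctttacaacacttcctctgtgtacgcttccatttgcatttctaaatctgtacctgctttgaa
SMAD7, intron 2, chr18:48942606-48942806: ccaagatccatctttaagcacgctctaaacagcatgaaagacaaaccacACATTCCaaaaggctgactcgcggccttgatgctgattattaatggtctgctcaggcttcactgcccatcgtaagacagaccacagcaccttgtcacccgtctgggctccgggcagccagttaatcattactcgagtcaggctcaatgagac
TGFB2, intron 1, chr1:218374180-218374380: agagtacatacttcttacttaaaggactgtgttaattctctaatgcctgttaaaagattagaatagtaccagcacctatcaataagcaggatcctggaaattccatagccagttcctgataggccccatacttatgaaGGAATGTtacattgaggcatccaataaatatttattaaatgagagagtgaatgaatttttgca
TGFB2, intron 1, shared, chr1:218351017-218351217: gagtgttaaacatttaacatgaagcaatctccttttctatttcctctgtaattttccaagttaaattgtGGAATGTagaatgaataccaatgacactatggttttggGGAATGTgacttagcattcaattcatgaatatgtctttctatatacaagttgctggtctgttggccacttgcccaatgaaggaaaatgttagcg
TGFB2, downstream, shared, chr1:218479795-218479995: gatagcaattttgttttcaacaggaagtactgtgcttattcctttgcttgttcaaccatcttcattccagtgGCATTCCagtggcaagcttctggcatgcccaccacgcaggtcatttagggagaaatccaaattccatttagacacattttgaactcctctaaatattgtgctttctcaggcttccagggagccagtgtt

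Among the ligands, TGFB2 (chr1:218345336-218444619, plus strand) was the most densely covered of the 10 genes, with 41 regions or 20.6 per 100 kb. By the number of regions it stood at the 97.5th percentile of coding genes. The part of chromosome 1 beyond the centromere, where TGFB2 lies, held 20.4 regions per 100 kb against 4.39 in the rest of chromosomes 1 to 22 and X. Among the 983 coding genes of that stretch, TGFB2 stood at the 64.1st percentile in regions per 100 kb. The dense coverage is thus shared with its chromosome arm, and what sets the density of the arm was not tested.

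The TGFB2 promoter lay in a shared region of 4017 bp, chr1:218344712-218348728, with a fold of 11.98 in Dox (93.5th percentile) and 12.71 in No Dox (94.9th percentile). The promoter ranked almost alike in both lists. The 300 bp RefSeq promoter, 250 bases before to 50 after the TSS (GRCh38.p14), is printed because it holds a TEAD match, in capitals, that starts 186 bp upstream of the TSS. The match lies outside the 100 bp around the peak summit, which was 0.602 kb into the gene.
TGFB2 promoter, chr1:218345086-218345385, plus strand: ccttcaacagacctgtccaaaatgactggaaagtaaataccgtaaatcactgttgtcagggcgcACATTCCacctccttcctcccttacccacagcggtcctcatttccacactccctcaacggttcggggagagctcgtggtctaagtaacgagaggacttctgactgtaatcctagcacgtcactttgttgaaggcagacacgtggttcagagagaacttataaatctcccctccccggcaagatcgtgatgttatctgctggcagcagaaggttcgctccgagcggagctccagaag

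The highest peaks of any of the 10 genes were in intron 1 of TGFB2. The region chr1:218376593-218378131, 32.1 kb into the gene, had folds of 31.4 with Dox and 33.1 without, at the 99.7th percentile in both lists. Its neighbour chr1:218379991-218381610, at 35.3 kb, had 28.5 and 22.7 (99.6th and 98.8th percentiles) and held a TEAD match. These regions were open in both conditions.

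Differences appeared around them. The region chr1:218350629-218352098, 5.78 kb into intron 1, had a fold of 8.14 with Dox, at the 84.8th percentile, and 2.75 without, at the 5.76th. Its No Dox peak stood at 13 steps, 1 above the lowest call, and was 253 bp wide against 1470 bp with Dox. This was the widest gap in rank among the 54 shared regions, and the printed sequence carries 2 TEAD matches, 28 bp before and 10 bp after the summit. Downstream of the gene, chr1:218479405-218481634 had 14.7 with Dox (96.2nd percentile) and 4.87 without (71.0th), with 1 TEAD match. Nearby, chr1:218488758-218489661 had 8.82 and 3.39 (87.0th and 36.7th), and chr1:218476223-218477222 had 5.20 and 3.39 (66.1st and 36.7th). Others went the other way. Downstream, chr1:218463050-218464065 had 7.46 with Dox (82.0th percentile, 33 steps) and 14.8 without (96.4th, 70 steps). With lists of nearly equal length its difference was −13.4 points with tied peaks kept and −12.7 with them left out. The region chr1:218459476-218460834 had 15.6 (96.8th, 69 steps) and 22.9 (98.9th, 108 steps). Its difference in rank was −2.06 points, beside the median of −4.56 over all coding gene windows. Near the top of a list, peaks far apart in fold differ little in rank, so this comparison says little about the region. A region at 16.2 kb in intron 1, chr1:218361455-218361874, had 3.62 with Dox (33.3rd percentile, 16 steps) and 4.03 without (57.7th, 19 steps). Its difference was −24.4 points with the lists as deposited. With lists of nearly equal length it was −13.4 with tied peaks kept and −4.64 with them left out.

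TGFB2 held 11 Dox-only and 15 No-Dox-only regions, of which 2 and 4 were strong. The Dox-only region of the highest fold among the 10 genes was chr1:218390479-218391315, 45.5 kb into the gene in intron 1, with a fold of 9.49 (88.9th percentile) at 42 steps. None of the 6 motifs sought occurred anywhere in it. The other strong Dox-only region, chr1:218454653-218455329, lay downstream with a fold of 4.75 at 21 steps. The strong No-Dox-only regions had folds in the range of the latter, at 4.45 and 4.87 upstream of the gene (chr1:218295990-218296629 and chr1:218299470-218299840), 4.24 in intron 6 (chr1:218439566-218439930) and 3.81 downstream (chr1:218482462-218483171). The count of No-Dox-only regions depended on the length of the lists. It was 6 with lists of equal length, where 12 were Dox-only, and 4 with the tied peaks at the cut left out.

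**Figure D2:**
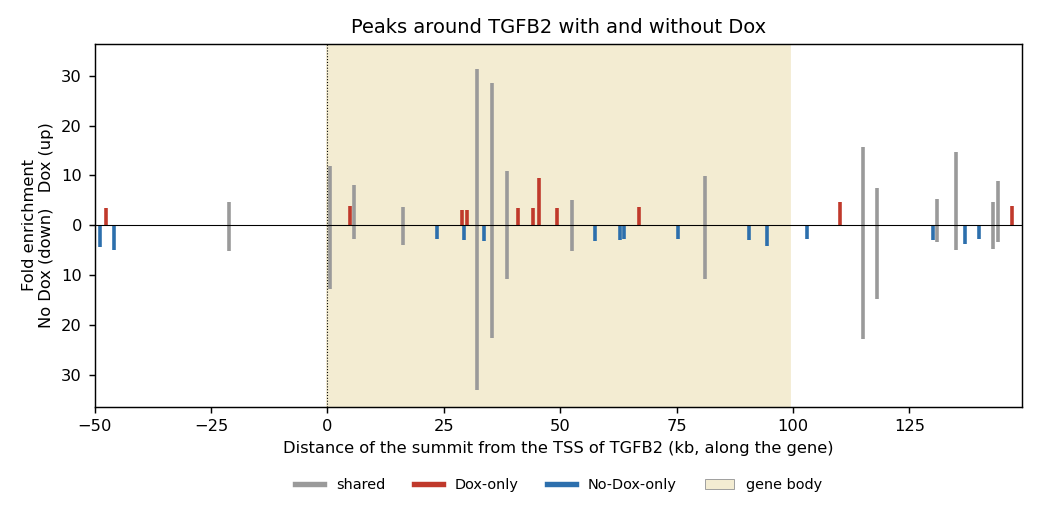
Fold enrichment of every region in the TGFB2 window against the distance of its summit from the TSS in kb, with Dox upwards and No Dox downwards. Shared regions are grey, Dox-only red and No-Dox-only blue, and the gene body is shaded. The tallest shared peaks stood at 32.1 and 35.3 kb, and the highest Dox-only peak at 45.5 kb.

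A further Dox-only region in the same intron, chr1:218374986-218375216, was weak (fold 3.17, 14 steps) but carried the palindrome GTCTAGAC, an 8-letter SMAD site. Of all Dox-only regions in coding gene windows 0.0995% held it near the summit. Its sequence is printed with the palindrome in capitals. The second stretch in capitals is an AP-1 match (TGACTCA) that lies beyond the end of the called region.
TGFB2, intron 1, chr1:218375095-218375295: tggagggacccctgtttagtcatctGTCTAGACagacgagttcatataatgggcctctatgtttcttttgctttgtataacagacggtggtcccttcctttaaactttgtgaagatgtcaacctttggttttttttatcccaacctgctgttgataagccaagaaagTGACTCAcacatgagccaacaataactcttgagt

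TGFB1, the best-known ligand of the family (chr19:41301587-41353922, minus strand), had 7 regions, 6 shared and 1 Dox-only. The window is crowded, and 5 of the 7 lay at promoters of other coding genes, among them HNRNPUL1, CCDC97, B9D2 and EXOSC5. The TGFB1 promoter region chr19:41353440-41354165, which is also within 1 kb of a TSS of TMEM91, had folds of 3.62 with Dox (33.3rd percentile, 264 bp wide) and 4.24 without (62.0th, 726 bp wide). It stood at 16 steps against 20. The difference of −28.7 points was the largest drop in rank at a promoter of the 10 genes, but it was −18.8 points with lists of nearly equal length and tied peaks kept, and −10.9 with them left out. The highest peak of the window, at the HNRNPUL1 promoter, stood at the 91.7th percentile in both lists. The Dox-only region, chr19:41367900-41368133, was weak at 3.39 and held an AP-1 match.

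TGFB3 (chr14:75958097-75983011, minus strand) had 2 regions, both shared. Its promoter region chr14:75981735-75983042 had folds of 4.97 with Dox (63.5th percentile) and 6.35 without (81.6th). The other, 3.8 kb upstream, was the promoter of IFT43, with 3.84 and 3.81. The differences in rank were −18.1 and −11.1 percentile points. With lists of nearly equal length they were −13.3 and 1.31 with tied peaks kept, so that only the TGFB3 promoter kept a lower rank with Dox.

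INHBA, which codes for the activin A subunit (chr7:41667168-41705834, minus strand), had no peak in either list in its gene body, its promoter or the flanking 50 kb. Such empty windows were found for 599 of the 19962 coding genes. The stretch without any peak ran over 299.7 kb, chr7:41580424-41880137, and INHBA was its only coding gene. It was bounded on both sides by Dox-only regions, with folds of 6.56 on the left, 86.8 kb from the gene, and 2.71 on the right, 174.3 kb from it. The region on the right had the lowest fold of the Dox list. Of all gaps between regions 0.171% were as long. This gap was looked up because the window was empty, so the share does not measure how unusual it is. GC made up 39.7% of the INHBA window, and what leaves it without peaks was not tested.

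Among the receptors, TGFBR1, the type I receptor (chr9:99104038-99154192, plus strand), had the strongest promoter. Its region chr9:99104269-99106053 had folds of 19.0 with Dox (98.2nd percentile) and 26.1 without (99.2nd). One of its RefSeq promoter entries, chr9:99104442-99104741, held a TEAD match starting 132 bp upstream of that TSS. The window had 1 other region, the Dox-only region chr9:99184501-99184970, downstream of the gene, with a fold of 4.30 at 19 steps, which is 1 step above the median.

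TGFBR2, the type II receptor (chr3:30606601-30694142, plus strand), had 7 regions, 5 shared, 2 Dox-only and none No-Dox-only. The promoter region chr3:30605802-30607579 had folds of 11.98 with Dox (93.5th percentile) and 16.1 without (97.0th), and an AP-1 match at the TSS. In intron 1, chr3:30625765-30626685 had 8.59 with Dox (86.3rd percentile) and 9.32 without (90.6th). The region chr3:30659120-30659960 in intron 3, 53.0 kb from the TSS, was higher with Dox, 7.23 (80.9th percentile) against 3.18 (26.2nd). Downstream, chr3:30720900-30721549 had 4.52 and 3.18 (56.9th and 26.2nd). The No Dox peaks of these last 2 regions stood at 15 steps. With lists of nearly equal length and tied peaks left out, neither was shared any more, and TGFBR2 had 4 Dox-only regions. The strong Dox-only region, chr3:30581815-30582393, lay 24.5 kb upstream with a fold of 4.97 at 22 steps, and the weak one in intron 1 had 3.39. An upstream region at 9.22 kb, chr3:30597203-30597927, had a TEAD match and a lower rank with Dox, 5.43 (68.4th percentile) against 8.05 (87.7th). No region in the 50 kb window of TGFBR2 was called in No Dox alone. Lists of equal length cannot test this, because only the No Dox list was shortened, to 84353 peaks. At a q-value of 1e-05 the No-Dox-only count was still 0. It depended on the window, however. Widening it to 100 kb on each side of TGFBR2 brought in 3 regions called in No Dox alone, beside 2 in Dox alone.

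TGFBR3, the co-receptor betaglycan (chr1:91680343-91906335, minus strand), was the receptor with the most regions, 12, of which 10 were shared, 2 were No-Dox-only and none was Dox-only. The promoter region chr1:91885461-91886683 had 10.4 with Dox (90.9th percentile) and 10.8 without (92.9th). Across its 10 shared regions the median difference in rank, Dox minus No Dox, was −7.47 percentile points, beside −4.56 over all coding gene windows. With lists of nearly equal length it was −3.49 with tied peaks kept and −0.297 with them left out. The largest drops were at chr1:91864199-91864901, with 3.84 with Dox (41.2nd percentile) and 6.14 without (80.5th), and at chr1:91851413-91852075, with 3.39 (24.0th) and 3.81 (52.3rd). The former difference was −34.3 and −30.2 points with lists of nearly equal length, and the latter −15.9 and −6.02. The region chr1:91736652-91737674 in intron 4, which held a TEAD match, was higher with Dox, 12.2 (93.8th) against 6.99 (84.3rd). TGFBR3 and TGFBR2 thus differed in the direction of their condition-only regions, 0 and 2 Dox-only against 2 and 0 No-Dox-only, on counts too small to set apart.

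SMAD2, a receptor-regulated SMAD (chr18:47808957-47931146, minus strand), had 5 regions and only its promoter was shared. That region, chr18:47929906-47931898, had folds of 12.7 in both lists (94.4th and 94.9th percentiles). The 3 Dox-only regions were chr18:47967965-47968798, 37.6 kb upstream (fold 4.30, 19 steps), chr18:47772619-47772910, downstream (4.07, 18 steps), and chr18:47881772-47882284 in intron 2 (3.62, 16 steps). The upstream one is the printed sequence with 2 TEAD matches, 52 and 34 bp before the summit. The No-Dox-only region, chr18:47945386-47945750, lay 15.0 kb upstream with a fold of 4.66 at 22 steps. It was the only No-Dox-only region of the 10 genes with an AP-1 match near the summit, shown in capitals.
SMAD2, 15.0 kb upstream, chr18:47945588-47945788: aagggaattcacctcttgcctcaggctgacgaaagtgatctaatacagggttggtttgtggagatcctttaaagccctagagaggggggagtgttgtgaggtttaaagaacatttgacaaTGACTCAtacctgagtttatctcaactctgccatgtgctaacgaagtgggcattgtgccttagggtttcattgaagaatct

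SMAD3, the other receptor-regulated SMAD (chr15:67063763-67195173, plus strand), had 11 regions, 6 shared, 2 Dox-only and 3 No-Dox-only. The promoter of the full-length transcript, chr15:67065163-67065903, had folds of 6.10 with Dox (74.1st percentile) and 4.45 without (65.5th). The promoter of a shorter coding transcript in intron 1 of the gene, chr15:67125406-67126020, had 6.78 with Dox (78.5th) and 3.60 without (45.4th). This was the largest gain in rank at any promoter of the 10 genes. Its RefSeq promoter is printed because it holds an AP-1 match (TGAGTCA, in capitals) 56 bp before the TSS, in a region whose rank differed.
SMAD3 internal promoter, chr15:67125492-67125791, plus strand: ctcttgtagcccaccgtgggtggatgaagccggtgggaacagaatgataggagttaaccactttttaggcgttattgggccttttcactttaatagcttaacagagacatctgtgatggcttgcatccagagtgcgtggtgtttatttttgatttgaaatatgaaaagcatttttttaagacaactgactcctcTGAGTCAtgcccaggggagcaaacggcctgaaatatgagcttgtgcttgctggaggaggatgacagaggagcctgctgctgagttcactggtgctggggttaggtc

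Some other shared regions of SMAD3 were higher with Dox as well, but not all. The region chr15:67105334-67105839 in intron 1 had 13.3 (95.1st percentile) against 7.63 (86.5th) and held a TEAD match, and chr15:67048631-67050351, 16.7 kb upstream, had 8.59 (86.3rd) against 5.08 (73.1st). Lower in rank with the lists as deposited were chr15:67106970-67107712 in intron 1, with 6.78 (78.5th) against 5.93 (79.3rd), and chr15:67174618-67176413. The latter, near the TSS of a non-coding transcript, had 5.88 (72.4th) against 6.14 (80.5th). With lists of nearly equal length the former differed by 4.53 points with tied peaks kept and 8.82 with them left out, and the latter by −3.05 and 0.991. Neither was thus lower in every setting. The median difference in rank over the 6 shared regions was 8.62 points. It was 14.9 with lists of nearly equal length and tied peaks kept and 19.8 with them left out, the highest median of the 9 genes with shared regions in each of these 3 settings. The strong Dox-only region was chr15:67044202-67044639, 21.1 kb upstream, with a fold of 5.88 (72.4th percentile) at 26 steps. It is the printed sequence with a TEAD match 68 bp after the summit. The strong No-Dox-only region, chr15:67150528-67150841 in intron 1, had 4.66 at 22 steps and no match to any motif.

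SMAD7 (chr18:48919853-48950965, minus strand) had 16 regions in a short window, 12.2 per 100 kb, and 8 of them were Dox-only, none No-Dox-only. Its surplus of 8 was higher than that of 94.1% of coding genes, and 377 coding genes (1.89%) had at least 8 Dox-only and no No-Dox-only regions. All 8 were weak. They stood at 13 to 17 steps with folds of 2.94 to 3.84, close to the limit of 12. The −log10 of their q-values ran from 2.23 to 4.62, so that none of the 8 passed a q-value of 1e-05. Of the 377 genes, 30 likewise had no strong Dox-only region. Near the summit the 8 regions had a median GC content of 61.0%, and they ran from 41.3% to 76.1%. Over all coding genes the Dox-only share was 30.15% between 40 and 50% GC and 68.5% at 60% or more. The part of base composition in the SMAD7 counts was not tested.

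The promoter of SMAD7 was called in both lists, as chr18:48951412-48952947 with 7.69 with Dox (83.0th percentile) and 7.20 without (85.1st), and as chr18:48949852-48950518 with 4.07 and 3.60. The Dox-only regions at further TSSs were chr18:48948686-48949167 in intron 1 (3.84, 17 steps) and chr18:48942617-48943302 in intron 2 (3.62, 16 steps). The second is the printed sequence with a TEAD match 48 bp before the summit, and it also held a RUNX match (TGTGGTT). The 2 TSSs there belong to non-coding transcripts. Another 2 Dox-only regions lay 4.27 and 5.39 kb upstream of the gene, so that 6 of the 8 were within the gene or close before it. Among the shared regions, chr18:48937418-48937766 in intron 3 was lower with Dox, 4.07 (47.6th) against 5.51 (76.6th), a difference that fell below 20 points with lists of nearly equal length once tied peaks were left out, and chr18:48991393-48992403, 41.0 kb upstream, was higher, 4.30 (52.7th) against 3.18 (26.2nd).

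**Figure D3:**
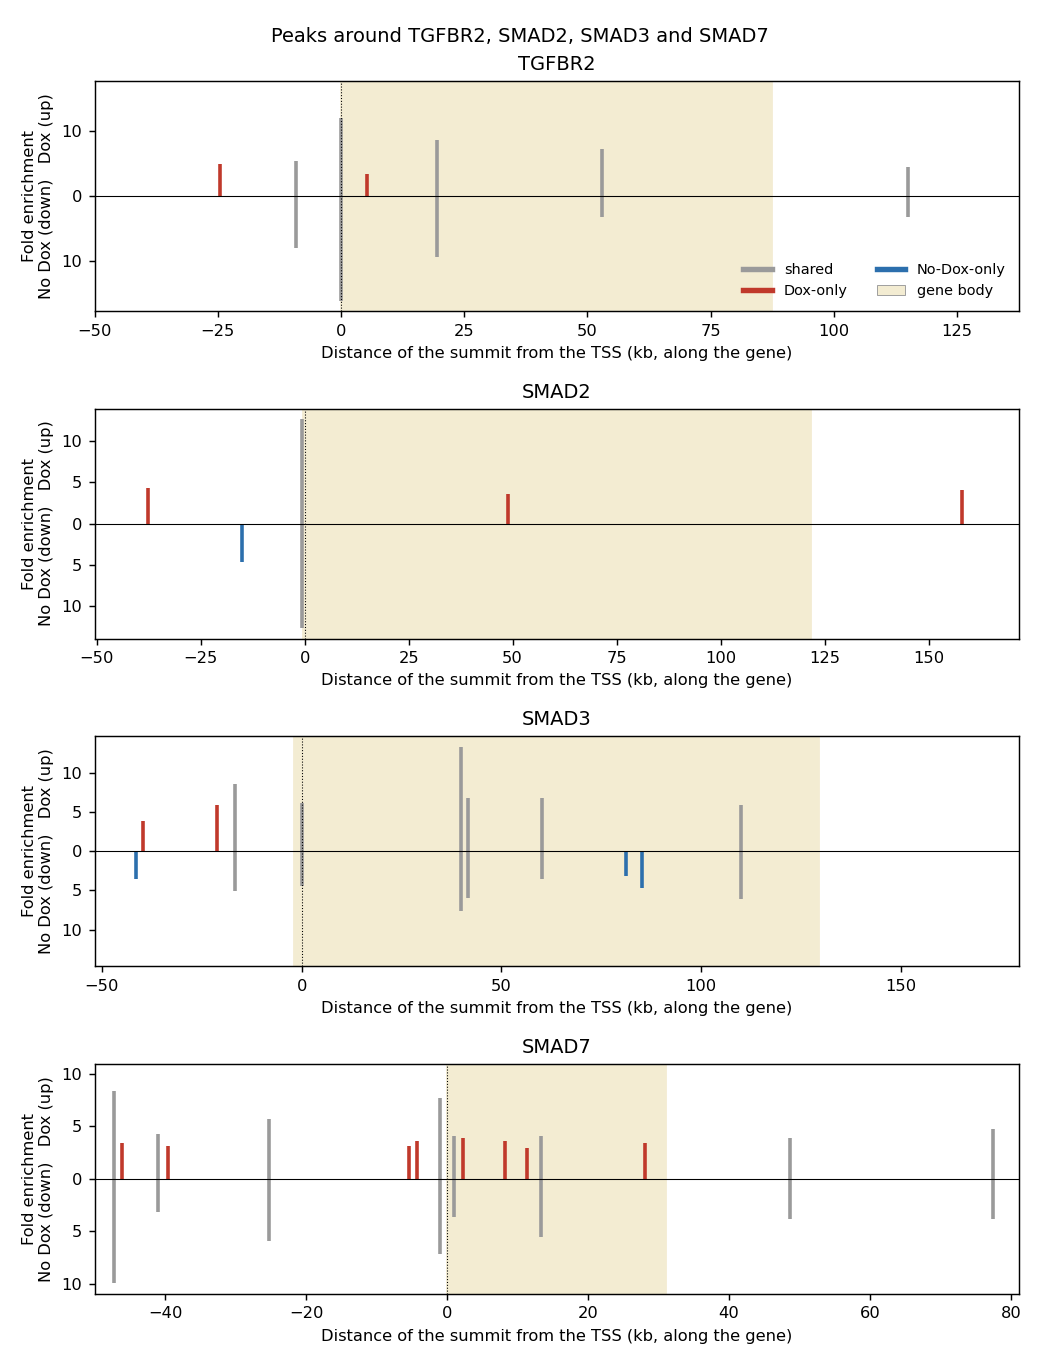
Fold enrichment of every region in the windows of TGFBR2, SMAD2, SMAD3 and SMAD7 against the distance of its summit from the TSS in kb, with Dox upwards and No Dox downwards, coloured as shared (grey), Dox-only (red) or No-Dox-only (blue), with the gene body shaded. Each panel has its own scale. The 8 Dox-only peaks of SMAD7 were all below a fold of 4, while the SMAD3 peak at 60.2 kb, at the internal promoter, was higher with Dox.

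Over all 54 shared regions, 8 stood at least 20 percentile points higher in the Dox list and 5 at least 20 points lower, with a median difference of −2.02 points. Over all coding gene windows 7.83% of shared regions were higher by this measure and 21.4% lower, with a median of −4.56. The 8 higher regions lay in 4 genes, 4 of them in TGFB2, 2 in TGFBR2, 1 in SMAD3 and 1 in SMAD7. The 5 lower ones lay in TGFB1, TGFB2, SMAD7 and, with 2, TGFBR3. These counts depended on the length of the lists. With lists of equal length 9 regions were higher and 1 lower, beside 13.6% and 12.5% over all coding genes. The counts were 9 and 2 with tied peaks at the cut kept and 9 and 1 with them left out. All 54 shared regions were strong in at least 1 list, as were 32939 of 36530 over all coding genes.

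**Figure D4:**
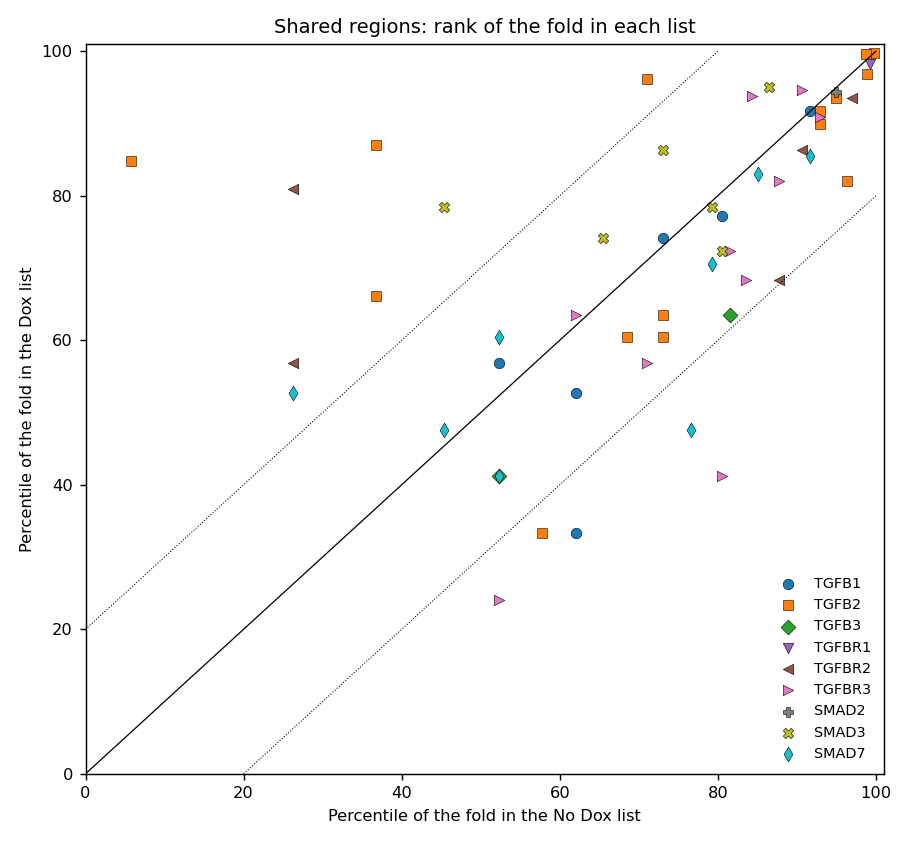
Percentile of the fold in the No Dox list (horizontal) and in the Dox list (vertical) for the 54 shared regions, with colour and shape by gene. The solid line marks equal rank and the dotted lines a difference of 20 points. A TGFB2 region at 5.76 and 84.8 lies farthest from the line of equal rank. Regions above a percentile of 90 in both lists cannot lie far from that line, whatever their folds.

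Motifs were sought in both strands, up to 100 bp from the summit of a region's highest peak. A TEAD match was found in 4 of 28 Dox-only regions (14.3%, 4.03 to 32.7) and in 0 of 21 No-Dox-only regions (up to 16.1%), where 12.6% and 5.52% of such regions over all coding genes held one. The share in Dox-only regions was thus near the background. Of the shared regions 9 of 54 held a TEAD match (16.7%, 7.92 to 29.3) beside 9.04% over all coding genes, a value inside the interval. Among the 8 shared regions that ranked higher with Dox 2 held one, beside 19.8%. AP-1 (TGACTCA or TGAGTCA) was found in 2 of 28 Dox-only regions and 1 of 21 No-Dox-only regions, beside 7.77% and 12.4%, and in 14 of 54 shared regions (25.9%, 15.0 to 39.7) beside 16.9%. The CAGA box of SMAD3 and SMAD4 (AGACAGACA or AGCCAGACA) was in none of the 103 regions, and 0.919% of Dox-only regions over all coding genes held it. The reversed TEAD sequence (CCTTACA or CCTTACG), sought as a control, was in 2 of the 103. Both were shared regions, of which 1.97% over all coding genes held it. The RUNX sequence was in 4 of 54 shared regions, 2 of 28 Dox-only regions and 0 of 21 No-Dox-only regions. Over all coding genes 4.73%, 4.46% and 4.62% of such regions held it, so these counts do not set the classes apart. RefSeq promoters were found for all 10 genes, some with several entries. Of 35116 RefSeq promoters, 6.64% held a TEAD match and 4.95% an AP-1 match. A match is a sequence in the window and does not show that a factor was bound.

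The other genes of the pathway were counted in the same way. Of 16 other ligands, ligand-binding proteins and traps, 10 leaned towards Dox-only regions and 5 the other way. The list held 70 against 27 (22 and 11 strong), a Dox-only share of 72.2% (62.1 to 80.8). LEFTY1, a Nodal antagonist, held 23 of these 70 and 2 of the 27. It lies on the same dense stretch of chromosome 1 as TGFB2, with 32.8 regions per 100 kb. The latent TGF-beta binding proteins LTBP2 and LTBP3 had 8 against 0 and 7 against 1. Of 12 other receptors 4 had more Dox-only and 6 more No-Dox-only regions, 23 against 28 in all. ITGAV, the integrin subunit that takes part in freeing latent TGF-beta, had 0 against 6 and the activin-type receptor gene ACVR1 0 against 3, while ENG (endoglin) had 4 against 0. Of 12 other SMADs and regulators 5 had more Dox-only and 6 more No-Dox-only regions, 36 against 29, but the strong regions numbered 3 against 12. The co-repressor SKI had 16 against 4, SMAD5, which transmits BMP signals, 6 against 10, and PMEPA1, a feedback inhibitor, 0 against 4. Of 14 target genes 9 had more Dox-only and 3 more No-Dox-only regions, 44 against 24 in all and 13 against 13 among strong regions. The collagen gene COL1A1 had 4 against 0, and LTBP2, which is on both lists, 8 against 0. The cell cycle inhibitor gene CDKN2B had no region and no promoter peak in either list. The lists do not show whether its locus was closed or missing from the DNA of these cells. Against 39.7% over all coding genes, the Dox-only share was 45.1% for the other receptors, 55.4% for the other SMADs and regulators and 64.7% for the target genes. Lists outside the pathway also lay away from 39.7%, with 62.1% (49.3 to 73.8) for the basal epithelial genes and 28.4% (18.5 to 40.1) for the genes of other cell types.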

How the data were processed

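The data are 1 ATAC-seq peak list for No Dox and 1 for Dox. Per the labels and the study's methods, the authors mapped the reads with BWA to hg38, joined the 2 biological replicates of a condition and ran MACS2 with an FDR limit of 0.05. Versions are not given in the sources used here. The fold enrichment of each peak, a ratio of signal to background at the summit, and the −log10 of its q-value were deposited as the peak caller wrote them. All peaks lay within the hg38 sequence ends.

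Touching or overlapping peaks were merged, on chromosomes 1 to 22 and X. Genes and TSSs came from GENCODE release 44, and motifs and sequences from hg38. Named were all 10 genes, all their strong condition-only regions, the regions of highest fold and the promoter peaks, and up to 3 genes per pathway list with the largest difference between Dox-only and No-Dox-only counts, ties by name. The values of 1 target gene that this rule names are left out, and CDKN2B is named outside the rule. The genes and lists were chosen with earlier results of these data known. The 20-point limit for ranks, the regions it names, and 3 of the printed regional sequences and the promoters were chosen after values were seen. Exact Clopper-Pearson intervals of 95% cover counting error only, and with 1 pooled list per condition no p-value is given. Scripts were tested on simulated data. Alternatives were stricter q-values, equal lists, other overlaps, windows, promoter distances and motif windows. Python 3.11.15, pandas 2.3.3, scipy 1.17.1 and pysam 0.24.0 were used.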

Additional observations from a re-analysis of the deposited data

How the results depend on the processing

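The counts over the 10 genes moved with the threshold and the window. At a q-value of 1e-05 Dox-only regions numbered 17 and No-Dox-only regions 8. With lists of equal length there were 11 No-Dox-only regions and a Dox-only share of 74.4%. With the tied peaks at that cut kept, No-Dox-only regions numbered 12, and with them left out 9, with a share of 78.1%. Strong regions alone gave 7 and 6. With 100 kb on each side Dox-only, No-Dox-only and shared counts were 49, 44 and 83, and in gene bodies alone 14, 13 and 34. Without TGFB2 there were 17 and 6, with a share of 73.9%. The Dox-only count exceeded the No-Dox-only count in each of these. Promoter peaks in both lists were found for 9 genes, and for 8 at a q-value of 1e-05, where the TGFB1 promoter was left in No Dox alone. No Dox-only region of the 10 genes held an AP-1 match within 50 bp of the summit, a share of 0, and the same value was found among strong regions. Shared regions that ranked lower with Dox numbered 1 with lists of equal length, 2 with tied peaks kept and 1 with them left out, 13 at a limit of 10 points and 1 at 30 points, and those that ranked higher numbered 5 at 30 points and 4 without TGFB2. The rank limits, the settings for them and the treatment of ties were chosen after the values were seen.

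No paired analysis was possible because the replicates were pooled by the authors and the lists carry no replicate. For the same reason no replicate was left out. The depth is not known from the lists. The SMAD7 counts rest on peaks close to the limit of calling.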
